A study of Mus musculus with 12 samples.

Results

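The genes described here are 33 genes of sterol and fatty acid synthesis in mouse fibroblasts, taken by symbol out of the 24318 genes of the deposited table. The match by symbol uses no measured value, but the list of symbols was chosen with earlier results of these data known. Shares of members set beside shares of all genes are therefore descriptions. All 33 were found. They comprise 7 genes of the mevalonate route, 10 of squalene and sterol synthesis, 4 of sterol regulation and transport, 4 of fatty acid synthesis and 8 of fatty acid desaturation, elongation and activation. Hmgcs1 is listed at 0 fragments in all 12 libraries although the other 6 genes of the mevalonate route have fragments in each, and whether this 0 is a matter of annotation or counting was not tested, so nothing is read from it. The other 32 passed the filter on low counts and were tested.

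Polyadenylated RNA came from immortalized embryonic fibroblasts of the mouse, all of which carry the genotype MafF-/-::MafG-/-::MafK-/- and so lack the 3 small Maf proteins with which the stress factor Nrf2 binds DNA. T-N2G DEM and T-N2G vehicle cells carried that genotype and in addition expressed T-N2G, a tethered Nrf2-MafG heterodimer, and were given 100 µM diethyl maleate (DEM) or vehicle for 12 h. Mock DEM and mock vehicle cells carried the genotype without T-N2G and got the same treatments. Each of the 4 groups held 3 libraries, numbered 1 to 3 in the labels, from cells grown in DMEM with 10% fetal bovine serum. DEM is an electrophile that reacts with glutathione. What drives the T-N2G transgene, whether a population is 1 clone and whether replicates were separate cultures is not given in the sources used here. P-values therefore measure spread among these libraries only, which may be technical.

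Cholesterol is made from acetyl-CoA through mevalonate, farnesyl diphosphate and squalene, and fatty acids are made from the same acetyl-CoA by carboxylation, chain building, elongation and desaturation. Transcription of both sets is driven by the membrane-bound factors SREBP-1 and SREBP-2, products of Srebf1 and Srebf2, which are released from the endoplasmic reticulum when sterols are low and held there by Insig proteins when sterols are high. Fibroblasts in culture run both routes.

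SREBPs act at sterol response elements, commonly beside a CCAAT box bound by NF-Y. Promoters of 5 members are shown because these genes differed between DEM and vehicle in ways described further on: Idi1, Mvk and Nsdhl were lower with DEM in both cell populations, Fasn was higher, and Fads2 differed between the populations. Each is the 250 bases before the start of the gene in RefSeq, build GRCm38.p6, 5′ to 3′ on the gene's strand. Capitals mark CCAAT on either strand, so ATTGG is the same box read on the other strand.
Idi1, chr13:8885356-8885605, plus strand: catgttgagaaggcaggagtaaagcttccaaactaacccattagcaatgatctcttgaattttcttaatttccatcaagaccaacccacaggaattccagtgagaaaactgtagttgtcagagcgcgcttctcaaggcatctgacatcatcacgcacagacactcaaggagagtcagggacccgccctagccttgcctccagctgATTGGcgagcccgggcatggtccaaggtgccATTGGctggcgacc
Mvk, chr5:114444019-114444268, plus strand: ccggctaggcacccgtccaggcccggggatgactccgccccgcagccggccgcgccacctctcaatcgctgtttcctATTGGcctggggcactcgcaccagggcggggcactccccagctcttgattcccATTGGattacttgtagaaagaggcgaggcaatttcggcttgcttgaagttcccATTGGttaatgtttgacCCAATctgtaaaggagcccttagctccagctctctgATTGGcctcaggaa
Nsdhl, chrX:72918271-72918520, plus strand: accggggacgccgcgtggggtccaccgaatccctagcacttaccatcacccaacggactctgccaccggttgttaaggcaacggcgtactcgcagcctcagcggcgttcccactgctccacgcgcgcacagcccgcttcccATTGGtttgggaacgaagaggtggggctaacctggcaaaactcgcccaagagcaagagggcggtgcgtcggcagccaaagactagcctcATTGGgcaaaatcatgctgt
Fasn, chr11:120824548-120824797, minus strand: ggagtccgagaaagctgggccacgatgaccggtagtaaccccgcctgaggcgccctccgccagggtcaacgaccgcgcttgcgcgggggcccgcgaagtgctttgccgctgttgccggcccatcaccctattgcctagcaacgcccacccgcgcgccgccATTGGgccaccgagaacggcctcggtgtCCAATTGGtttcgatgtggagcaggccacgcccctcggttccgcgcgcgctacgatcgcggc
Fads2, chr19:10101504-10101753, minus strand: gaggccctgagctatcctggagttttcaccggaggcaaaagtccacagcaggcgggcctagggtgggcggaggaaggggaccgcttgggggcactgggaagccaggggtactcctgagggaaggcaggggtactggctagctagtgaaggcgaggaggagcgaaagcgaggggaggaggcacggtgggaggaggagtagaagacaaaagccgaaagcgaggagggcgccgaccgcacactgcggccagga

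The box occurs 5 times in the Mvk window, 3 times in that of Fasn, 2 times each in those of Idi1 and Nsdhl, and not in that of Fads2. RefSeq held promoters for 26 of the 33 members, 32 windows in all, and 22 of these windows (68.8%) contained CCAAT on either strand, against 33.8% of all 32851 windows of the same length. The core TCACNCCAC, 1 form of the sterol response element, was found on either strand in 1 member window (3.12%), that of Hmgcs1, against 1.05% of all windows. The antioxidant response core TGACNNNGC, the kind of site bound by Nrf2 with small Maf proteins, stood in 12.5% of member windows and 10.2% of all windows, and the E-box CACGTG in 15.6% and 6.02%. None of the 4 motifs contains another, and in Fasn 2 of the 3 CCAAT boxes, on opposite strands, share letters. A match describes letters, not binding.

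The 12 libraries held 18863560 to 23095692 fragments each. The transgene's parts were high where the labels place it. Nfe2l2, which encodes Nrf2, averaged 556 and 599 CPM in T-N2G DEM and T-N2G vehicle cells and 62.4 and 53.2 CPM in mock DEM and mock vehicle cells, and Mafg averaged 121 and 137 CPM in the T-N2G groups and 0.877 and 0.514 CPM in the mock groups. Of the other small Maf genes named in the genotype, Maff averaged 3.78 to 4.49 CPM and Mafk 1.62 to 2.37 CPM over the 4 groups, and which parts of these genes the fragments came from is not shown by values per gene, so the deletions could not be checked. CPM are fragment counts scaled by the effective library size. Nqo1, the standard Nrf2 target, averaged 101 CPM in T-N2G DEM, 15.9 in T-N2G vehicle, 5.75 in mock DEM and 3.93 in mock vehicle cells. All 10 fibroblast markers examined were expressed, and their summed level was 11955 to 14953 CPM in T-N2G DEM, 14894 to 19286 in T-N2G vehicle, 14010.2 to 16969 in mock DEM and 15022 to 18460.4 in mock vehicle libraries. Of 9 adipocyte markers, Adipoq, Plin1, Lep, Cfd and Retn were at 0 in all 12 libraries, and the summed level of the 9 was 26.6 to 28.2 CPM in T-N2G DEM, 26.0 to 30.5 in T-N2G vehicle, 19.6 to 21.5 in mock DEM and 19.5 to 24.9 in mock vehicle libraries, nearly all of it Pparg. Markers of hepatocytes, leukocytes and steroidogenic cells summed to at most 3.51 CPM, endothelial markers to at most 15.5 CPM, and epithelial markers to 5.59 to 26.5 CPM, highest in replicate 3 of each group.

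The members differed between replicate numbers more than between groups. Of the 32 tested members, 30 (93.8%) were at their highest in replicate 2 in each of the 4 groups, against 17.4% of the 12469 genes tested. Replicate 2 exceeded the mean of replicates 1 and 3 by a median of 0.49 on the log2 scale over the members, against 0.01 over all genes, whose 5th to 95th percentiles were -0.31 to 0.42. The difference reached 0.92 for Tm7sf2, a sterol reductase, 0.77 for Insig1 and 0.76 for the desaturase gene Scd2, and was smallest for the elongase genes Elovl1 (-0.09) and Elovl5 (0.04). All 16 tested genes of the mevalonate and sterol routes were highest in replicate 2 throughout, with a median of 0.54. In 30 of the 32 members this difference was larger than any of the 4 differences between groups. What the numbers stand for is not given in the labels, and the part of culture, day or library preparation was not tested.

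**Figure D1:**
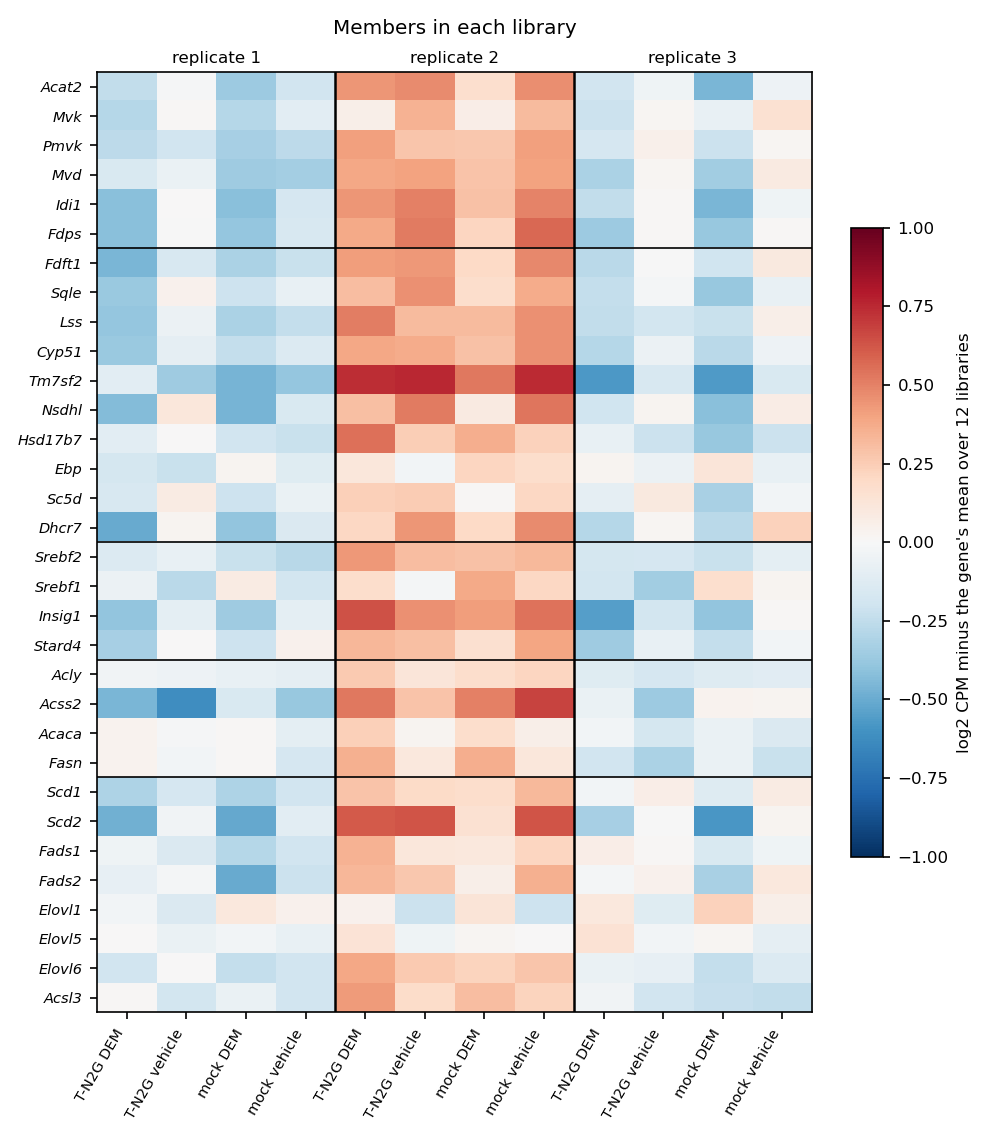
Heat map of log2 CPM of the 32 tested members (lines, grouped by role) in each of the 12 libraries (columns, grouped by replicate number), minus the gene's mean over the libraries. The 4 libraries numbered 2 are red for nearly all members, with the elongase genes Elovl1 and Elovl5 near 0, and in mock cells the vehicle library is redder than the DEM library of the same number for most genes of the sterol route.

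**Figure D2:**
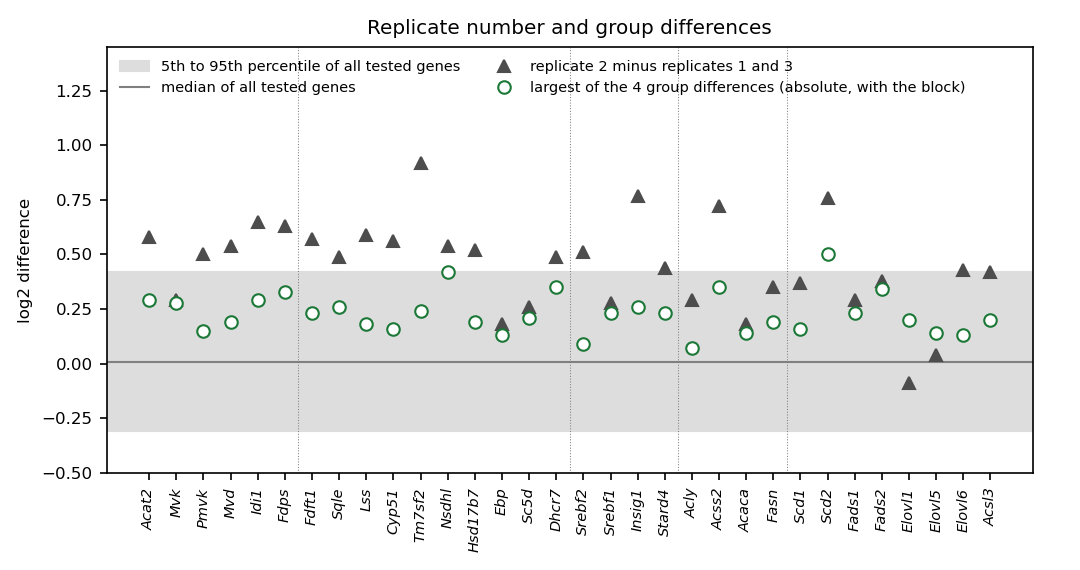
For each of the 32 members, log2 difference of replicate 2 from the mean of replicates 1 and 3 over the 4 groups (triangles) and the largest absolute log2 difference among the 4 group comparisons with the replicate block (circles). The grey band is the 5th to 95th percentile, -0.31 to 0.42, of the replicate 2 difference over all 12469 genes, and the triangle is above the circle in 30 members.

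Deviations from the group means were shared by libraries of the same number over all genes tested, with Pearson r of 0.424 to 0.72 in 18 pairs of the same number and -0.516 to 0.0583 in 36 pairs of different numbers. The number therefore paired the libraries, and results are given from edgeR's quasi-likelihood test without and with the replicate number as a block. Without the block, 0 of the 32 members passed an adjusted p of 0.05 in any of the 5 comparisons by edgeR, DESeq2 or limma, and unadjusted p under 0.05 was reached only by Elovl1 and Elovl5 for DEM in T-N2G cells and by Elovl1 for DEM in mock cells. With the block 23 members passed in at least 1 comparison. P-values from the fit with the block measure the spread left after differences between replicate numbers are taken out, not the whole spread between libraries. The common coefficient of variation was 0.0428 with the block and 0.11 without it. In what follows, rose and fell mean an adjusted p under 0.05 with the block, over all 12469 genes, and log2 fold changes and standard errors are from that fit. The members named in this way were chosen after their values were seen.

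Levels per length, in the deposited FPKM of mock vehicle cells, were high for desaturase genes and low for some sterol genes. Scd2, a stearoyl-CoA desaturase gene, had the highest mean with 258 ± 72.8 FPKM (SD, n = 3), and Fdps, the farnesyl diphosphate synthase gene, came next with 120.0 ± 33.3. The delta-6 desaturase gene Fads2 had 93.9 ± 18.3 FPKM, Acly, which makes cytosolic acetyl-CoA from citrate, 82.5 ± 10.8, and Elovl5 80.5 ± 2.72, and the ranges of these 3 overlapped. At the other end stood Acss2, an acetyl-CoA synthetase gene, with 5.34 ± 2.00 FPKM and Tm7sf2 with 2.99 ± 1.31. Srebf2 was higher than Srebf1 in this group, with 64.6 ± 14.1 against 20.7 ± 2.73 FPKM.

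With DEM, 10 of the 16 tested genes of the cholesterol route (62.5%) fell in both cell populations and none rose. Of the 4 genes of fatty acid synthesis none fell. Of all genes 22.2% fell in T-N2G cells and 21.9% in mock cells. The changes were small, the largest being a fold of 0.709 for Scd2 in mock cells. Of the 32 members 12 fell and 8 rose with DEM in T-N2G cells, or 37.5% and 25.0%, where 22.2% and 22.8% of all 12469 genes fell and rose with the block and 7.55% and 10.1% without it. In mock cells 16 of the 32 fell and 4 (12.5%) rose, where 21.9% and 20.9% of all genes fell and rose with the block and 6.18% and 7.76% without it. The 12 members that fell in T-N2G cells all fell in mock cells, which is 100.0% of the T-N2G list and 75.0% of the mock list. The share of all genes that fell in both populations was not counted, so nothing about the members is read from this overlap. The 2 comparisons share no library, but they come from the same fit, with a common block and a common estimate of the spread. In bulk RNA, fewer cells of a kind and less RNA per cell cannot be told apart. With DEM 9 of the 10 fibroblast markers also fell in T-N2G cells and 7 of 10 in mock cells, and 1 rose in each, where 22.2% and 21.9% of all genes fell. The part of these shifts in the members' values was not tested.

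Among the 6 tested genes of the mevalonate route, 4 (66.7%) fell with DEM in both populations and none rose. Of all genes 22.2% fell in T-N2G cells and 21.9% in mock cells. The median log2 fold change of the 6 was -0.19 in T-N2G cells and -0.25 in mock cells, against -0.00 and -0.01 over all genes. Fdps had 84.0, 146 and 87.4 CPM in T-N2G DEM libraries, against 112, 161 and 113 CPM in T-N2G vehicle libraries. It had 85.7, 129.8 and 86.1 CPM in mock DEM libraries, against 100.2, 167 and 113 CPM in mock vehicle libraries. Within each replicate number the DEM library was the lower one, although replicate 2 of each DEM group lay above replicates 1 and 3 of its vehicle group. The log2 fold change was -0.31 ± 0.05 (SE), adjusted p = 0.000115 in T-N2G cells and -0.33 ± 0.05 (SE), adjusted p = 7.27e-05 in mock cells.

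Idi1, which isomerises isopentenyl diphosphate, had 117, 213 and 132 CPM in T-N2G DEM libraries, against 157, 222 and 158 CPM in T-N2G vehicle libraries. Its mock values were 117, 192 and 114 CPM in mock DEM libraries, against 139, 221 and 152 CPM in mock vehicle libraries. All 3 pairs of the same number were lower with DEM in each population, and the groups overlapped because of replicate 2. The log2 fold change of Idi1 was -0.25 ± 0.06 (SE), adjusted p = 0.00178 in T-N2G cells and -0.29 ± 0.06 (SE), adjusted p = 0.000573 in mock cells.

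Mvk, the mevalonate kinase gene, was measured at 35.0, 44.4 and 36.8 CPM in T-N2G DEM libraries, against 43.0, 54.3 and 43.4 CPM in T-N2G vehicle libraries. In mock cells it was measured at 35.1, 44.8 and 40.6 CPM in mock DEM libraries, against 39.6, 53.1 and 47.4 CPM in mock vehicle libraries. Its fall was even over the pairs, between -0.29 and -0.24 on the log2 scale in T-N2G cells and between -0.24 and -0.17 in mock cells, and the fitted values were -0.28 ± 0.05 (SE), adjusted p = 0.000608 in T-N2G cells and -0.21 ± 0.05 (SE), adjusted p = 0.00438 in mock cells. Acat2, a cytosolic thiolase gene with the close paralogue Acat3, had 54.8, 88.3 and 57.0 CPM in T-N2G DEM libraries, against 64.5, 90.1 and 63.3 CPM in T-N2G vehicle libraries. The same gene had 50.6, 73.1 and 47.5 CPM in mock DEM libraries, against 57.1, 89.9 and 62.9 CPM in mock vehicle libraries. It fell by 0.13 in T-N2G cells (adjusted p = 0.0403) and by 0.29 in mock cells (adjusted p = 0.000222). Pmvk and Mvd, which act after Mvk, did not pass, with log2 fold changes of -0.04 and -0.14 in T-N2G cells and -0.15 and -0.19 in mock cells.

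Of the 10 genes from squalene to cholesterol, 6 fell with DEM in both populations and none rose. The median log2 fold change of the 10 was -0.15 in T-N2G cells and -0.21 in mock cells. Nsdhl, a sterol dehydrogenase gene, had 53.2, 88.2 and 62.5 CPM in T-N2G DEM libraries, against 77.7, 103 and 73.2 CPM in T-N2G vehicle libraries. It had 52.1, 76.5 and 53.8 CPM in mock DEM libraries, against 64.7, 104 and 75.6 CPM in mock vehicle libraries, the largest fall of the route in these cells. The log2 fold change was -0.33 ± 0.06 (SE), adjusted p = 0.000210 in T-N2G cells and -0.42 ± 0.06 (SE), adjusted p = 2.88e-05 in mock cells, a fold of 0.796 and 0.747.

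Dhcr7, which carries out the final reduction to cholesterol, had 24.6, 40.3 and 28.6 CPM in T-N2G DEM libraries, against 35.5, 47.3 and 35.4 CPM in T-N2G vehicle libraries. It had 26.6, 40.0 and 28.9 CPM in mock DEM libraries, against 31.6, 48.4 and 41.0 CPM in mock vehicle libraries. Every same-number pair was lower with DEM, by 0.23 at least on the log2 scale, and the fitted values were -0.35 ± 0.07 (SE), adjusted p = 0.000556 in T-N2G cells and -0.34 ± 0.07 (SE), adjusted p = 0.000606 in mock cells. Sqle, the squalene epoxidase gene, had 85.4, 137 and 93.9 CPM in T-N2G DEM libraries, against 114, 152 and 109 CPM in T-N2G vehicle libraries. Its mock values were 95.7, 125 and 85.0 CPM in mock DEM libraries, against 105, 143 and 105 CPM in mock vehicle libraries. Sqle fell by 0.26 ± 0.05 (SE) in T-N2G cells (adjusted p = 0.000670) and by 0.21 ± 0.05 in mock cells (adjusted p = 0.00367).

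Sc5d, the lathosterol oxidase gene, averaged 62.9 ± 9.64 CPM in T-N2G DEM and 69.5 ± 4.71 CPM in T-N2G vehicle cells, and 55.8 ± 6.73 CPM in mock DEM and 64.5 ± 6.81 CPM in mock vehicle cells (SD, n = 3 each). It fell by 0.15 in T-N2G cells (adjusted p = 0.0249) and by 0.21 in mock cells (adjusted p = 0.00338). Fdft1, the squalene synthase gene, fell by 0.18 in T-N2G cells (adjusted p = 0.0248) and by 0.23 in mock cells (adjusted p = 0.00610). Cyp51, the lanosterol demethylase gene, fell by 0.16 in each population (adjusted p = 0.0146 in T-N2G cells and 0.0150 in mock cells). Lss, Tm7sf2, Hsd17b7 and Ebp did not pass in either population, and their log2 fold changes ran between -0.05 and 0.12 in T-N2G cells and between -0.24 and 0.12 in mock cells.

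How firmly these falls stand depended on the library left out. With each of the 12 libraries left out in turn, with the block, Dhcr7, Fdps, Idi1, Mvk, Nsdhl, Scd2 and Sqle fell in T-N2G cells every time, and in mock cells Acat2, Dhcr7, Fads2, Fdps, Idi1, Mvk, Nsdhl, Sc5d, Scd2, Sqle and Stard4 did. The T-N2G calls of Acat2, Fdft1, Cyp51 and Stard4 were each lost without T-N2G DEM replicate 1 or 3 or without T-N2G vehicle replicate 1 or 3, with adjusted p between 0.0536 and 0.190, and that of Sc5d without T-N2G DEM replicate 1 or, of the vehicle libraries of these cells, 1 or 3, with adjusted p between 0.101 and 0.138. The count of members that fell in T-N2G cells was 7 without T-N2G DEM replicate 1, T-N2G vehicle replicate 1 or T-N2G vehicle replicate 3. In mock cells the call of Fdft1 was lost without mock DEM replicate 2 (adjusted p = 0.0630) and that of Cyp51 without mock DEM replicate 2 (0.0623) or 3 (0.0897). Without replicate number 2 in every group, 13 members fell with DEM in T-N2G cells and 14 in mock cells with the block, and 8 and 6 fell even without it. The 8 were Idi1, Fdps, Sqle, Cyp51, Nsdhl, Insig1, Stard4 and Scd2, and the 6 were Acat2, Idi1, Fdps, Nsdhl, Insig1 and Scd2. The mock call of Mvk was lost without number 2 (adjusted p = 0.0568).

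**Figure D3:**
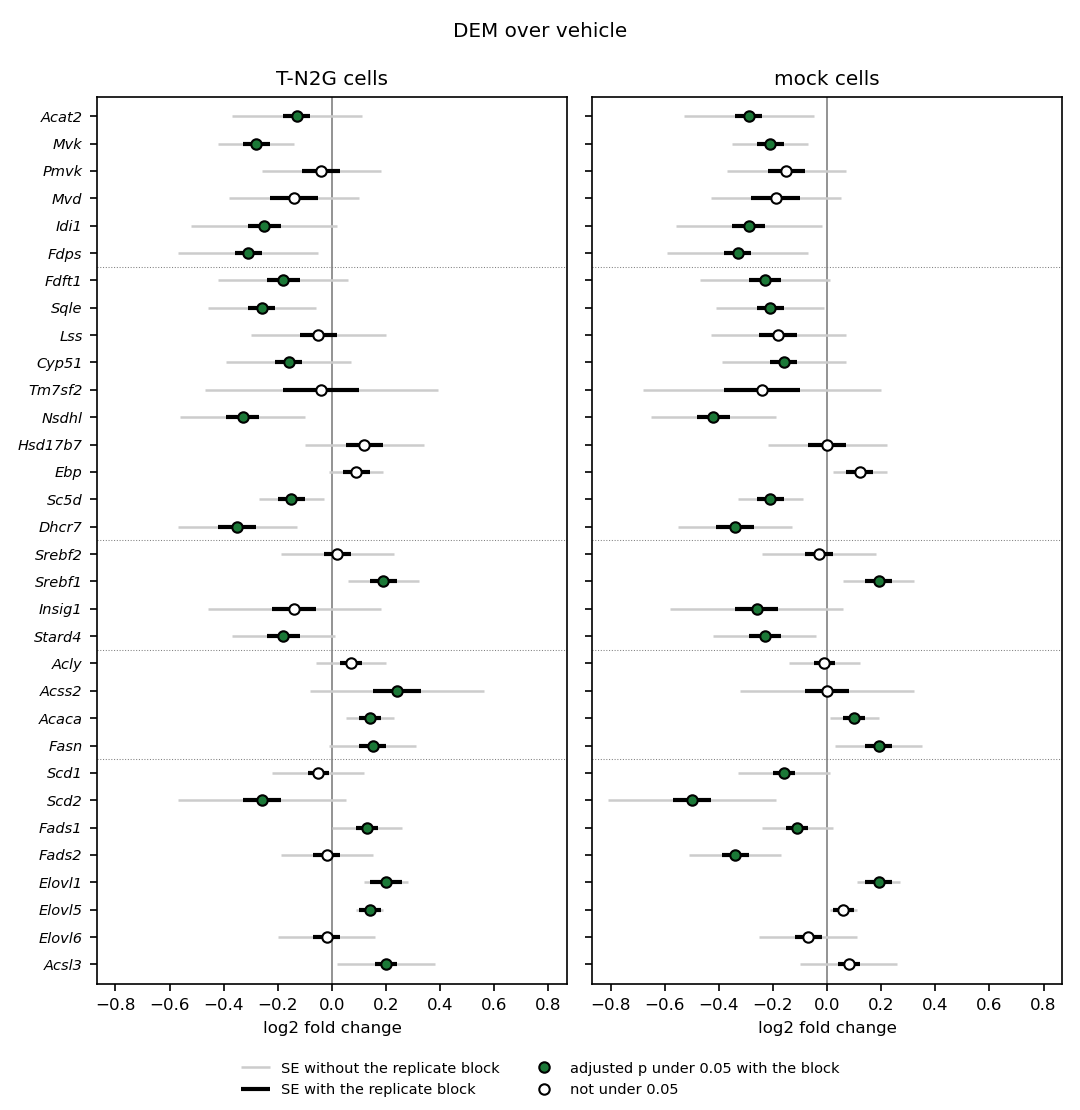
Log2 fold change of DEM over vehicle, with the replicate block, for the 32 members grouped by role, in T-N2G cells (left) and mock cells (right). Black bars are the standard error with the block, grey bars the standard error without it, and filled circles passed an adjusted p of 0.05 with the block. Most genes of the upper 2 groups, the mevalonate and sterol routes, lie left of 0 in both panels, while the 4 genes of fatty acid synthesis lie at or right of 0.

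The regulators did not move together. Srebf1 had 80.9, 95.3 and 74.3 CPM in T-N2G DEM, 69.9, 83.0 and 66.3 in T-N2G vehicle, 89.2, 109.6 and 94.7 in mock DEM and 74.3, 97.4 and 86.0 in mock vehicle libraries. It rose with DEM by 0.19 ± 0.05 (SE) on the log2 scale in each population (adjusted p = 0.00796 in T-N2G cells and 0.00831 in mock cells), and all 6 pairs were higher with DEM. The Srebf1 call was lost in T-N2G cells without T-N2G DEM replicate 1 (adjusted p = 0.0680) or T-N2G vehicle replicate 3 (0.0607), and in mock cells without mock vehicle replicate 1 (0.0851), and in both without replicate number 2 in every group (0.0645 in T-N2G cells and 0.0507 in mock cells). Srebf2 had 259, 384 and 252 CPM in T-N2G DEM, 270.3, 352 and 253 in T-N2G vehicle, 244, 348 and 244 in mock DEM and 234, 356 and 266 in mock vehicle libraries. Its groups overlapped fully, and the log2 fold change was 0.02 ± 0.05 (SE), adjusted p = 0.770 in T-N2G cells and -0.03 ± 0.05 (SE), adjusted p = 0.610 in mock cells.

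Insig1, whose protein retains SREBPs in the endoplasmic reticulum and whose gene is itself an SREBP target, had 86.2, 176 and 77.3 CPM in T-N2G DEM, 106, 155 and 99.8 in T-N2G vehicle, 88.7, 151 and 86.1 in mock DEM and 106, 165 and 114 in mock vehicle libraries. In mock cells it fell by 0.26 ± 0.08 (SE; adjusted p = 0.0170), a call lost without mock DEM replicate 1 (adjusted p = 0.0526), mock DEM replicate 3 (0.0600) or mock vehicle replicate 3 (0.115). In T-N2G cells the value was -0.14 ± 0.08 (SE), adjusted p = 0.183, with pair differences of -0.30, 0.18 and -0.37. Without replicate number 2 Insig1 fell by 0.33 in each population (adjusted p = 0.00124 in T-N2G cells and 0.00153 in mock cells, with the block). Stard4, a carrier of cholesterol between membranes, fell by 0.18 in T-N2G cells (adjusted p = 0.0221) and by 0.23 in mock cells (adjusted p = 0.00588).

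Of the 4 genes of fatty acid synthesis, 3 rose with DEM in T-N2G cells, 2 rose in mock cells and none fell, where 22.8% and 20.9% of all genes rose. Without replicate number 2 in every group none of the 4 was called in either population. Fasn, the fatty acid synthase gene, had 654, 819 and 560.4 CPM in T-N2G DEM libraries, against 627, 687 and 515 CPM in T-N2G vehicle libraries. It had 646, 822 and 612 CPM in mock DEM libraries, against 569.6, 692 and 549.5 CPM in mock vehicle libraries. All 6 pairs were higher with DEM, and the log2 fold change was 0.15 ± 0.05 (SE), adjusted p = 0.0210 in T-N2G cells and 0.19 ± 0.05 (SE), adjusted p = 0.00367 in mock cells. The mock call held with each library left out, but not without replicate number 2 in every group (adjusted p = 0.0510). In T-N2G cells it was lost without T-N2G DEM replicate 1 or 2 or T-N2G vehicle replicate 2 or 3, with adjusted p between 0.0640 and 0.170.

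Acaca, the acetyl-CoA carboxylase gene, rose by 0.14 ± 0.04 (SE) in T-N2G cells (adjusted p = 0.00855) and by 0.10 ± 0.04 in mock cells (adjusted p = 0.0458). The mock call was lost without any of 10 of the 12 libraries, T-N2G DEM replicate 2 and T-N2G vehicle replicate 2 being the exceptions, with adjusted p between 0.0532 and 0.168. In T-N2G cells it was lost without T-N2G DEM replicate 2 (0.0823) or T-N2G vehicle replicate 2 (0.0901). Acss2 rose by 0.24 ± 0.09 in T-N2G cells (adjusted p = 0.0300), a call lost without T-N2G DEM replicate 2 or 3 or any T-N2G vehicle replicate (adjusted p between 0.0690 and 0.130). Acly did not pass, with 0.07 in T-N2G cells and -0.01 in mock cells.

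The 8 genes of desaturation, elongation and activation went both ways. In T-N2G cells 4 rose and 1 fell, where 22.8% and 22.2% of all genes did. In mock cells 1 rose and 4 fell, where 20.9% and 21.9% of all genes did. The 1 that fell in T-N2G cells and the 1 that rose in mock cells (12.5% each) lay below these shares. Whether these counts differ between the populations was not tested, so nothing is read from their contrast. Scd2 had 847, 1805 and 934 CPM in T-N2G DEM libraries, against 1151, 1822 and 1177 CPM in T-N2G vehicle libraries. It had 828, 1309 and 787 CPM in mock DEM libraries, against 1094, 1819 and 1202 CPM in mock vehicle libraries. In mock cells every pair fell, by 0.40 to 0.61 on the log2 scale, whereas in T-N2G cells replicate 2 was at -0.01 and the other pairs were at -0.44 and -0.33. The fitted values were -0.26 ± 0.07 (SE), adjusted p = 0.00408 in T-N2G cells and -0.50 ± 0.07 (SE), adjusted p = 1.84e-05, a fold of 0.709, in mock cells. This was the largest change of any member, and the difference between the populations was 0.24 ± 0.09 (SE), adjusted p = 0.261.

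Scd1, the paralogue of Scd2, fell by 0.16 ± 0.04 (SE) in mock cells (adjusted p = 0.00647; 0.0615 without mock DEM replicate 3), against -0.05 ± 0.04 (SE), adjusted p = 0.385 in T-N2G cells. The elongase gene Elovl1 rose by 0.20 ± 0.06 in T-N2G cells (adjusted p = 0.00634; 0.0689 without T-N2G DEM replicate 2) and by 0.19 ± 0.05 in mock cells (adjusted p = 0.00964; 0.0982 without mock vehicle replicate 2). Acsl3, which activates fatty acids to their CoA esters, had 72.1, 95.8 and 69.6 CPM in T-N2G DEM libraries, against 62.8, 81.1 and 62.7 CPM in T-N2G vehicle libraries. It rose by 0.20 ± 0.04 in T-N2G cells (adjusted p = 0.00174, and under 0.05 with each library left out), while the value in mock cells was 0.08 ± 0.04 (SE), adjusted p = 0.171. Elovl5 rose by 0.14 ± 0.04 in T-N2G cells (adjusted p = 0.00824), a call lost without T-N2G DEM replicate 3 (0.0659) or T-N2G vehicle replicate 2 (0.0635), and Elovl6 passed in neither population.

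The number of members that rose was less firm than the number that fell. In T-N2G cells it was 3 without T-N2G DEM replicate 2 or T-N2G vehicle replicate 2, 5 without T-N2G vehicle replicate 3, and 2, Elovl1 and Acsl3, without replicate number 2 in every group. In mock cells it was 2 without mock vehicle replicate 1 and 0 without replicate number 2 in every group.

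**Figure D4:**
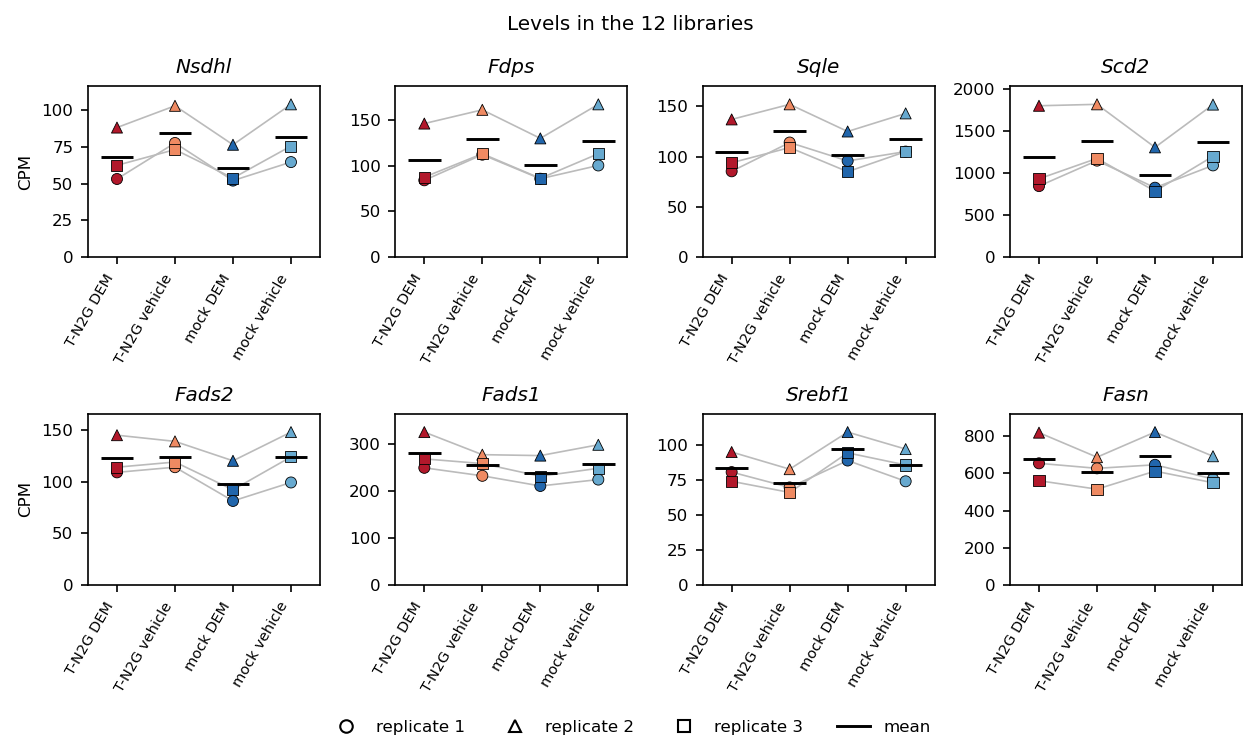
CPM of 8 members in the 12 libraries, by group, with the replicate number as the marker shape, grey lines joining libraries of the same number and black bars at the group mean; each axis starts at 0. For Nsdhl, Fdps, Sqle and Scd2 the lines dip at DEM in both populations except Scd2 in T-N2G replicate 2 (1805 CPM with DEM and 1822 CPM with vehicle), for Fads2 the dip is in mock cells, and for Srebf1 and Fasn the lines rise at DEM.

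Between the cell populations the members differed by small amounts, although under DEM 16 of the 32 were higher in T-N2G cells in all 3 pairs of the same number, against 23.8% of all genes. In vehicle no member was higher with T-N2G and 2 of 32 (6.25%) were lower, Srebf1 and Acss2, where 3.06% and 3.24% of all genes rose and fell with the block and 0.305% and 0.00802% without it. The median log2 fold change over the members was 0.01. Under DEM 5 members (15.6%) were higher in T-N2G cells and 1 (3.12%) lower, where 10.3% and 9.32% of all genes were called with the block and 2.61% and 1.11% without it, and the median was 0.07. The comparison under DEM shares its libraries with the DEM effects above, so the values are the same measurements seen along the other axis.

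The desaturase genes Fads1 and Fads2, which act in succession on polyunsaturated fatty acids and lie side by side in the genome, were higher in T-N2G cells under DEM. Fads2 had 109, 145 and 114 CPM in T-N2G DEM libraries, against 81.3, 120.2 and 92.1 CPM in mock DEM libraries. In vehicle it had 114, 139 and 119 CPM in T-N2G libraries, against 99.2, 148 and 124 CPM in mock libraries. All 3 pairs were higher in T-N2G cells under DEM, by 0.27 to 0.43 on the log2 scale, and the vehicle libraries overlapped. The log2 fold change was 0.33 ± 0.05 (SE), adjusted p = 0.000225, a fold of 1.26, under DEM and 0.02 ± 0.05 (SE), adjusted p = 0.909 in vehicle.

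Fads1, the delta-5 desaturase gene, had 249, 325 and 268 CPM in T-N2G DEM libraries, against 210.4, 275 and 231 CPM in mock DEM libraries. In vehicle it had 232, 277 and 258 CPM in T-N2G libraries, against 224, 298 and 248 CPM in mock libraries. The pair differences under DEM were 0.24, 0.24 and 0.21, and the fitted value was 0.23 ± 0.04 (SE), adjusted p = 0.000461. In vehicle it was 0.00 ± 0.04 (SE), adjusted p = 0.999. Both calls under DEM held with each of the 12 libraries left out and without replicate number 2. Pparg, which made up nearly all of the adipocyte marker sum, was also higher in T-N2G cells with the block, by 0.45 on the log2 scale under DEM (adjusted p = 7.62e-05) and by 0.41 in vehicle (adjusted p = 0.000658), and its part in these differences was not tested.

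Under DEM, Acat2 was higher in T-N2G cells by 0.22 (adjusted p = 0.00537), Scd2 by 0.25 (0.0106) and Sc5d by 0.17 (0.0263). These calls rested on T-N2G DEM replicate 2 or other single libraries. Without T-N2G DEM replicate 2 the adjusted p was 0.0724 for Acat2, 0.150 for Scd2 and 0.225 for Sc5d, and without mock DEM replicate 3 it was 0.0574, 0.0764 and 0.203 for the same genes. Sc5d was also lost without T-N2G DEM replicate 3 (0.0737) or mock DEM replicate 2 (0.0713), and Scd2 without mock DEM replicate 2 (0.0553). The count of higher members was 2 without T-N2G DEM replicate 2 or mock DEM replicate 3, and 9 with T-N2G DEM replicate 1 left out.

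Srebf1 was the member that was lower in T-N2G cells in both treatments, by 0.23 ± 0.05 (SE) under DEM (adjusted p = 0.00490) and by 0.23 ± 0.05 in vehicle (adjusted p = 0.0132). All 6 pairs were lower, from -0.09 to -0.37 on the log2 scale. Under DEM the call held with each library left out, and in vehicle it was lost without T-N2G vehicle replicate 3 (adjusted p = 0.118), mock vehicle replicate 2 (0.0570) or mock vehicle replicate 3 (0.123). Acss2 was lower in vehicle by 0.35 ± 0.08 (adjusted p = 0.0174), at 8.16, 15.3 and 9.79 CPM in T-N2G libraries against 9.65, 20.1 and 12.8 CPM in mock libraries. That call was lost without any of the 3 T-N2G vehicle libraries or without mock vehicle replicate 2 or 3, with adjusted p between 0.0549 and 0.129. Without T-N2G vehicle replicate 3, mock vehicle replicate 3 or replicate number 2 in every group no member was called in vehicle. Srebf1 alone was called without T-N2G vehicle replicate 1 or 2, and without mock vehicle replicate 2 the only call was of another member, Elovl1, at -0.20 (adjusted p = 0.0495).

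**Figure D5:**
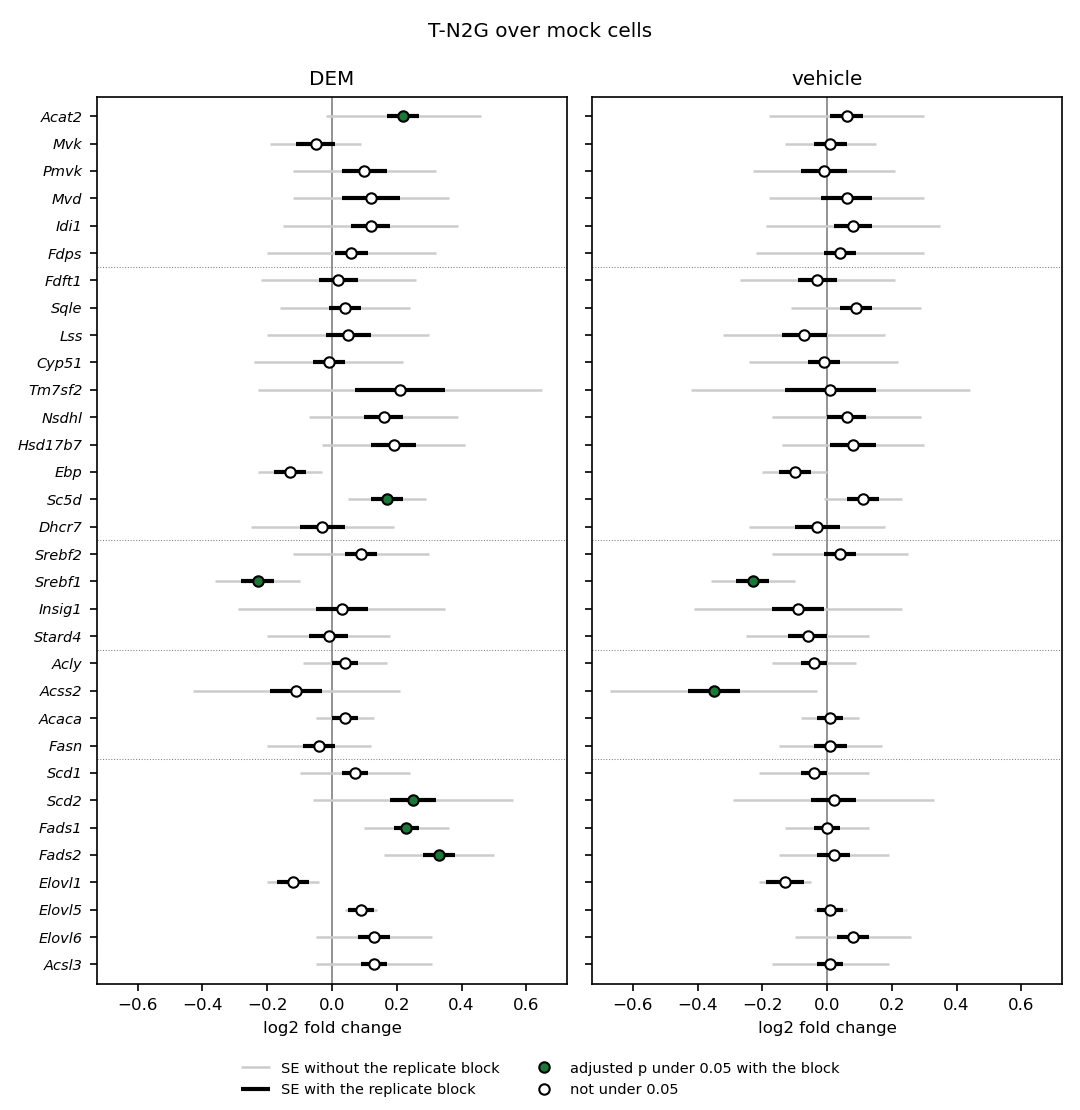
Log2 fold changes between T-N2G and mock cells, positive where T-N2G is higher, with the replicate block, for the 32 members grouped by role, under DEM (left) and in vehicle (right). Black and grey bars are the standard errors with and without the block, and filled circles passed an adjusted p of 0.05 with the block. Fads1, Fads2, Scd2, Acat2 and Sc5d lie right of 0 and Srebf1 left of 0 under DEM, and Srebf1 and Acss2 lie left of 0 in vehicle.

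The difference of the DEM effects, T-N2G minus mock cells, passed with the block for 2 of 32 members (6.25%), both higher, where 1.82% of all genes were called higher and 0.978% lower with the block, and 0.417% and 0.0160% without it. Fads2 had a difference of 0.32 ± 0.08 (SE), adjusted p = 0.0265, the DEM effect being -0.02 in T-N2G cells and -0.34 in mock cells. Fads1 had a difference of 0.23 ± 0.06 (SE), adjusted p = 0.0331, with DEM effects of 0.13 ± 0.04 (SE), adjusted p = 0.0163 in T-N2G cells and -0.11 ± 0.04 (SE), adjusted p = 0.0449 in mock cells. The DEM call of Fads1 was lost in T-N2G cells without T-N2G DEM replicate 2 (adjusted p = 0.104) or T-N2G vehicle replicate 2 (0.197), and in mock cells without T-N2G DEM replicate 2, any mock DEM library or mock vehicle replicate 2 or 3 (0.0653 to 0.213). These 2 calls were weak. Fads1 lost its call without 9 of the 12 libraries, T-N2G DEM replicate 3, T-N2G vehicle replicate 3 and mock vehicle replicate 1 being the exceptions, with adjusted p between 0.0531 and 0.179. Fads2 lost it without 8, the exceptions being T-N2G DEM replicate 3, T-N2G vehicle replicate 1, mock DEM replicate 2 and mock vehicle replicate 1, with adjusted p between 0.0736 and 0.127. Without replicate number 2 in every group the adjusted p was 0.210 for Fads2 and 0.472 for Fads1. For the sterol route the differences between populations were small, with a median of 0.05 over its 16 tested genes and none called.

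Other genes of lipid metabolism, 83 in the table of which 71 were tested, held some calls without the block, for DEM at shares near those of all genes. Of the 71, 8 (11.3%) rose and 4 (5.63%) fell with DEM in T-N2G cells without the block, where 10.1% and 7.55% of all genes did, and 7 (9.86%) rose and 3 (4.23%) fell in mock cells, where 7.76% and 6.18% did. Under DEM 2 (2.82%) exceeded their mock level in T-N2G cells and in vehicle 1 (1.41%), where 2.61% and 0.305% of all genes did. Single libraries moved these counts. Without T-N2G DEM replicate 2 or 3 or T-N2G vehicle replicate 3 the rises in T-N2G cells numbered 5, and without T-N2G vehicle replicate 1 they numbered 4. The falls there numbered 2 without T-N2G DEM replicate 3 or T-N2G vehicle replicate 1 or 2. In mock cells 2 rose without mock DEM replicate 2, 3 without mock DEM replicate 3 or mock vehicle replicate 1, and 4 without mock DEM replicate 1 or mock vehicle replicate 2 or 3. The 2 above their mock level under DEM became 1 without mock DEM replicate 2 or 3. With the block 19 (26.8%) rose and 13 (18.3%) fell with DEM in T-N2G cells, where 22.8% and 22.2% of all genes did, and 18 (25.4%) rose and 15 (21.1%) fell in mock cells, where 20.9% and 21.9% did. With T-N2G 9 (12.7%) were higher and 3 (4.23%) lower under DEM, where 10.3% and 9.32% of all genes were, and 2 (2.82%) higher and 1 (1.41%) lower in vehicle, where 3.06% and 3.24% were. Me1, the cytosolic malic enzyme that supplies NADPH for fatty acid synthesis, had 175, 188 and 199.8 CPM in T-N2G DEM, 97.1, 86.7 and 89.8 in T-N2G vehicle, 58.0, 55.2 and 51.1 in mock DEM and 57.0, 59.1 and 45.4 in mock vehicle libraries. Its groups under DEM did not overlap, and without the block its T-N2G level under DEM was 3.43-fold that of mock cells (log2 1.78 ± 0.10 (SE), adjusted p = 4.95e-07) and 1.69-fold in vehicle (log2 0.76 ± 0.10 (SE), adjusted p = 0.00467). DEM raised it 2.06-fold in T-N2G cells (adjusted p = 6.06e-05) and not detectably in mock cells (log2 0.02 ± 0.10 (SE), adjusted p = 0.895).

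Ggps1, which makes geranylgeranyl diphosphate and so branches off the sterol route, had 26.6, 30.3 and 31.1 CPM in T-N2G DEM, 20.2, 19.5 and 20.3 in T-N2G vehicle, 23.5, 21.3 and 21.6 in mock DEM and 18.5, 18.1 and 19.1 in mock vehicle libraries. DEM raised it 1.47-fold in T-N2G cells (adjusted p = 0.000740 without the block), and with T-N2G and DEM it stood above its mock level by 1.33-fold (adjusted p = 0.00858; 0.0558 without mock DEM replicate 2 and 0.0579 without mock DEM replicate 3).

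Npc1, which exports cholesterol from lysosomes, rose with DEM without the block, by 0.45 in T-N2G cells (adjusted p = 0.00742) and by 0.42 in mock cells (adjusted p = 0.0135). Nr1d1, the clock repressor Rev-erb alpha, fell by 0.68 in T-N2G cells (adjusted p = 0.00106) and by 0.66 in mock cells (adjusted p = 0.00218). Gpam, the mitochondrial glycerol-3-phosphate acyltransferase gene, fell by 0.35 in T-N2G cells (adjusted p = 0.0200; lost without T-N2G DEM replicate 3, T-N2G vehicle replicate 1 or T-N2G vehicle replicate 2, at 0.0537 to 0.0637) and by 0.44 in mock cells (adjusted p = 0.00892).

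The members that passed in no comparison even with the block were Acly, Ebp, Elovl6, Hsd17b7, Lss, Mvd, Pmvk, Srebf2 and Tm7sf2. Pairs of the same number were also counted over the 32 members. With DEM, 11 members were lower in all 3 pairs and 10 higher in T-N2G cells, where 35.2% and 33.7% of all genes were, so that the members lay near the share of all genes, and 21 were lower and 7 higher in mock cells, where 34.5% and 32.6% of all genes were. Between populations, 16 were higher in T-N2G cells and 4 lower in all 3 pairs under DEM, where 23.8% and 24.8% of all genes were, so that the higher members lay above the share of all genes. In vehicle 4 of the 32 were higher and 4 lower, where 21.2% and 21.7% of all genes were, so that the members lay below the share of all genes there.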

How the data were processed

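RNA of 12 libraries, 3 in each of 4 groups named by the labels, had been processed per the submitters' processing notes with bcl2fastq 2.16.0.10, TopHat2 2.0.8b, Cuffdiff 2.1.1 and the build mm9. The order of the tools, the strand setting, the annotation and the handling of reads shared by paralogues are not given in the sources used here. The deposited table, per the file headers, holds an estimated count of fragments (raw fragments) per gene and library and FPKM, which the authors scaled by length and library size, and 98.3% of its fragment values were whole. Of 396 member values 12 were not whole, all of Acsl3. The table's rows, named by condition and replicate, were joined to samples by the key in the series' design text.

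Counts were rounded and tested in R 4.3.3 with edgeR 4.0.16 (quasi-likelihood, TMM, factors 0.980 to 1.028) over all 12 libraries, with 12469 of 24318 genes kept by filterByExpr (minimum count 10, total 15) and 5 contrasts, Benjamini-Hochberg adjusted over all genes. The common coefficient of variation was 0.11 without and 0.0428 with the replicate number as a block, with 8 and 6 residual degrees of freedom. The block was planned as an alternative, and because same-numbered libraries deviated together (r of 0.424 to 0.72) its values stand beside the results. DESeq2 1.42.0, limma 3.58.1 on log2(FPKM + 1), other filters and scalings, and leaving out libraries were also run. The test without the block recovered known changes in simulated counts, but these changes were larger than those of any member. The simulated counts held no differences between replicate numbers, so they do not bear on the calls made with the block. Standard errors are the log2 fold change divided by the root of F. Totals of 18863560 to 23095692 fragments limit the precision of low genes such as Tm7sf2.

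The members and the other gene lists were chosen with earlier results of these data known. Values per library were given for members with the smallest adjusted p in the comparisons that call the most, and for Srebf1, Srebf2 and Insig1, and up to 4 called other lipid genes per comparison were chosen for naming, some of which are not reported here. RefSeq promoters (GRCm38.p6) are of another build than the counts.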

Additional observations from a re-analysis of the deposited data

Results flagged for a closer look

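A test of the difference of the DEM effects between T-N2G and mock cells passed for 4 of the genes named, for Fads2 and Fads1 only with the replicate block. With the replicate block the difference, T-N2G minus mock cells, was 0.32 on the log2 scale for Fads2 (adjusted p = 0.0265) and 0.23 for Fads1 (adjusted p = 0.0331). Without the block neither passed (adjusted p = 1.000 for each). The calls with the block were weak, and neither held with each library left out in turn. Without replicate number 2 in every group, with the block, the adjusted p was 0.210 for Fads2 and 0.472 for Fads1. For the malic enzyme gene Me1 the difference was 1.02 without the block (adjusted p = 0.00649) and for Nqo1 it was 2.12 (adjusted p = 0.0311), a call that for Nqo1 was lost without any of 9 single libraries, with adjusted p between 0.0542 and 0.121. Single outlying libraries within the groups of 3 were not tested.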

How the results depend on the processing

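Without the replicate block no member passed in any comparison, under any alternative filter, scaling, tool or library left out, with 2 exceptions. Without mock vehicle replicate 2, 1 member was called higher for DEM in T-N2G cells, a comparison that does not hold this library. That count therefore ranged from 0 to 1 over the libraries left out. Without replicate number 2 in every group, an alternative chosen after seeing the data, 8 members were lower for DEM in T-N2G cells and 6 in mock cells.

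With the replicate block the counts of members higher and lower were 5 and 1 for T-N2G relative to mock under DEM, 0 and 2 in vehicle, 8 and 12 for DEM in T-N2G cells, 4 and 16 for DEM in mock cells, and 2 and 0 for the difference. DESeq2 with the block gave 3 and 1, 0 and 1, 7 and 11, 3 and 14, and 2 and 0 in the same order, and limma on log2(FPKM + 1) with the block 5 and 1, 0 and 2, 8 and 12, 4 and 15, and 0 and 0. Replicates 1 and 2 alone, whose sample codes in the labels are of 1 series, gave with the block 4 and 1, 0 and 0, 7 and 7, 3 and 11, and 0 and 0, and the block without replicate number 2 gave 2 and 1, 0 and 0, 2 and 13, 0 and 14, and 0 and 0. Leaving out each library in turn with the block gave 2 to 9 and 1 to 1 for T-N2G relative to mock under DEM, 0 to 0 and 0 to 2 in vehicle, 3 to 8 and 7 to 13 for DEM in T-N2G cells, 2 to 4 and 12 to 18 (17 without T-N2G vehicle replicate 1) for DEM in mock cells, and 0 to 2 and 0 to 0 for the difference. The fits with the block that drop a library, use another tool or drop number 2 were chosen after seeing the data.

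Among members and comparisons called with the block, signs without the block turned in 11 leave-one-out values. Turns of sign in members and comparisons not called were not counted, so 11 is not a total over the members. Without T-N2G DEM replicate 2, T-N2G against mock cells under DEM became -0.04 for Acat2 and -0.14 for Scd2, and DEM in T-N2G cells became -0.07 for Acss2 and -0.01 for Fasn. Without T-N2G vehicle replicate 2, DEM in T-N2G cells became 0.06 for Acat2, 0.02 for Fdft1, 0.02 for Cyp51 and 0.03 for Scd2, and without T-N2G DEM replicate 1 it became 0.00 for Fdft1. Without mock vehicle replicate 2, DEM in mock cells became 0.05 for Cyp51 and 0.02 for Fads1. The opposite ends of these ranges over the libraries left out were 0.43 for Acat2 and 0.56 for Scd2 for T-N2G relative to mock under DEM, -0.38 for Acat2, -0.47 for Fdft1, -0.42 for Cyp51, 0.54 for Acss2, 0.26 for Fasn and -0.64 for Scd2 for DEM in T-N2G cells, and -0.35 for Cyp51 and -0.21 for Fads1 for DEM in mock cells. These groups then lack 1 library of a number that the others keep. With 3 libraries a group and replicate differences above the group differences, changes of this size did not pass without the block while number 2 was kept, apart from the 1 call named above, and what number 2 stands for was not tested.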
